A study of Homo sapiens with 20 samples.

Results

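The genes described here are 33 megakaryocyte and platelet genes of the human leukaemia line K562. They were taken as a list of gene symbols, and each symbol matched 1 Ensembl gene in both kinds of count table, so that they are 33 of 57736 gene identifiers in drug-treated cells and 33 of 53153 genes in silencer-excised cells. By role, 9 are surface receptors for adhesion, 8 are proteins of platelet granules or secreted proteins, 6 belong to the cytoskeleton and to granule traffic, 4 are transcription factors, 3 are receptors for platelet agonists, 1 is a signalling adaptor and 2 are enzymes that make thromboxane.

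Megakaryocytes are the large marrow cells that shed platelets. They load alpha granules with adhesive and growth-regulating proteins, build proplatelets from a bundle of microtubules, and put receptors on the surface for von Willebrand factor, collagen, thrombin and nucleotides. They share a progenitor and the factor GATA1 with red cells, while RUNX1, FLI1, ETV6 and MEIS1 act on the megakaryocytic side. K562 came from a patient with chronic myeloid leukaemia in blast crisis and has an erythroid character, and phorbol esters are known to move it towards a megakaryocytic state.

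RNA was sequenced in 20 libraries of 10 groups, 2 biological replicates each by the study's design text. In the drug experiment (12 libraries) unmodified K562 cells received 5 uM GSK343, an inhibitor of the histone methyltransferase EZH2, for 72 h, 100 uM X5050, an inhibitor of the repressor REST, for 72 h, both drugs at the same doses for 8, 24 or 72 h, or the vehicle DMSO for 72 h. In the excision experiment (8 libraries) K562 cells had silencer 1 and silencer 2 (DKO), silencer 1 (S1KO) or silencer 2 (S2KO) cut out by CRISPR, or carried an empty vector (EV). Whether each excised line came from 1 clone is not given in the sources used here. The study asked what losing the silencers, or blocking both repressors, does to gene activity. Since DMSO was given for 72 h, the 8 h and 24 h groups differ from it in time as well as in drug.

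Depth was 22925617 to 38177320 gene counts per drug library and 55913728 to 98507880 estimated gene counts per excision library. Levels below are CPM, each gene's count as a share of its library's effective size on the usual CPM scale. A call means an adjusted p of at most 0.05 from edgeR's quasi-likelihood test with Benjamini-Hochberg adjustment over all tested genes, and ± after a log2 fold change is its standard error. Markers checked the line: none of 18 erythroid genes was at 0 in any group, and their summed level was 1751 to 6392 CPM over the drug libraries and 2981 to 22129 CPM over the excision libraries. FGF18, known from the study as the target gene of the silencers, had 16 and 16 counts in DKO, 6 and 1 counts in S1KO, 9 and 2 counts in S2KO, and 9 and 0 in EV. Libraries of a group were not always alike. In S1KO, S2KO and EV the first library had the higher gamma globin gene HBG2 (6332 against 3315 CPM in S1KO, 5064 against 2122 in S2KO, 2864 against 1010 in EV), and the first X5050 library likewise (2279 against 1029 CPM).

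Much of the platelet programme was silent or close to it in K562. A filter on low counts left 21 of the 33 genes tested with drugs and 25 after excision; 20 were tested in both experiments and 7 in neither. Those 7 hold defining parts of a mature platelet: GP9 and GP5 of the von Willebrand factor receptor, the podoplanin receptor CLEC1B, P-selectin (SELP), TREML1, platelet factor 4 (PF4) and coagulation factor XIII subunit A (F13A1). TREML1 had 0 counts in all 20 libraries, which allows up to 3 counts, or 0.0786 to 0.131 CPM in a drug library and 0.0305 to 0.0537 CPM in an excision library, counting error only. F13A1 had 2 counts in all over the drug libraries and 0 over the excision libraries, and PF4 had 1 and 3 counts in all. GP5 had 38 counts over the 12 drug libraries, at most 0.234 CPM in any, and 0 in excised and EV cells, whereas CLEC1B had 0 counts in the drug libraries and 2 to 9 in each excision library, at most 0.116 CPM. The drug and excision experiments were counted by different programs, so such contrasts do not show a difference between the cells.

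A few more genes were too low for a test in the drug experiment or stayed near the floor. FLI1, an ETS factor central to megakaryocytes, had 22 counts over the 12 drug libraries, and 6 and 17 counts in DKO, 14 and 7 counts in S1KO, 14 and 4 counts in S2KO, and 17 and 19 in EV. Von Willebrand factor (VWF) had 18 counts over the drug libraries, 7 and 8 counts in DKO, and 0 and 0 in EV. The chemokine precursor PPBP reached 83 counts in the second S1KO library and 23 in the second S2KO library, against 3 and 4 counts in EV. Multimerin (MMRN1) had 61 and 36 counts in S1KO, 4 and 8 in DKO, 0 and 0 in S2KO, and 5 and 0 in EV. None of these 4 passed the test in an excised line. GP1BA, which binds von Willebrand factor, had 4 to 18 counts in 11 drug libraries and 3 in the other, and 0 in all excision libraries. The different counting programs limit this contrast too. The partner of GP1BA, GP1BB, was listed at 0 in all 12 drug libraries. All exonic bases of GP1BB lie within SEPT5-GP1BB and 64.8% within SEPT5, both on the same strand, and SEPT5 was at 39.9 to 257 CPM there, so the 0 does not show that GP1BB was silent. In bulk RNA fewer cells of a type and less RNA per cell cannot be told apart.

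The members that the results turn on are shown first by the DNA in front of their start. Below are the 250 bases upstream of the RefSeq start of GP6 (chr19:55038265-55038514, minus strand), which rose with every drug treatment, and of RAB27B (chr18:54717607-54717856, plus strand), TUBB1 (chr20:59019179-59019428, plus strand) and SPARC (chr5:151686916-151687165, minus strand), which rose in excised cells. Coordinates are GRCh38.p14 and each sequence runs 5′ to 3′ on the gene's strand. Capitals mark GATAA, a core of GATA factor sites, and GGAAG, a core of ETS factor sites, on either strand, so that TTATC and CTTCC are the same motifs read on the other strand.
GP6: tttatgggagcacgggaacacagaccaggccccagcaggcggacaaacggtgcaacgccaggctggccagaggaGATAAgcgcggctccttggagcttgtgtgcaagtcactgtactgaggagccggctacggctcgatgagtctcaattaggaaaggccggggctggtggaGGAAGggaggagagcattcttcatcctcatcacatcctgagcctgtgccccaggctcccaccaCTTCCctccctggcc
RAB27B: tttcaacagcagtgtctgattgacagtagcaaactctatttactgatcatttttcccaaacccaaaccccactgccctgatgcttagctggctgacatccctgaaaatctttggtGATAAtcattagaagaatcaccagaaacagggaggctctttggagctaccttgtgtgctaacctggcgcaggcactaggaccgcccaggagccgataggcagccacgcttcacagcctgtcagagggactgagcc
TUBB1: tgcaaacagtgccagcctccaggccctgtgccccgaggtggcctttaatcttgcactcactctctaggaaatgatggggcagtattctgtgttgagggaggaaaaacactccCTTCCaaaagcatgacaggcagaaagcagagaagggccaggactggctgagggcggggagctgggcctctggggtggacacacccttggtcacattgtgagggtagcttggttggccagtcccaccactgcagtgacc
SPARC: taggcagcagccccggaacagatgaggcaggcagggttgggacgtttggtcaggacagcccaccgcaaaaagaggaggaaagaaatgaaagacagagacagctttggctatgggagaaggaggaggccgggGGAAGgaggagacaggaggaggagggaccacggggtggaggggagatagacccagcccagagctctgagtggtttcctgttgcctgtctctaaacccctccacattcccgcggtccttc
GATAA was found once upstream of GP6 and of RAB27B and not in this window of TUBB1 or SPARC. GGAAG was found in all of these except RAB27B. In windows of 300 bases (the last 50 after the start) GATAA was in 12 of the 25 members with a RefSeq entry (48.0%) and in 22.7% of all 35116 promoters, and GGAAG in 22 (88.0%) and in 71.9%. These matches are descriptions of letters and not of binding. GP1BA, PF4, VWF, FLI1, F2R, P2RX1, ANGPT1 and MYL9 had no entry.

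After 72 h, what did each drug do to these genes? GP6, the collagen receptor that starts platelet activation, rose more than 4-fold with either drug and with both. GSK343 also raised the ATP-gated channel P2RX1, the factor ETV6, the granule docking GTPase RAB27B and the matrix protein SPARC. X5050 raised RAB27B, the platelet tubulin TUBB1, the adhesion receptor CD226 and the angiopoietin ANGPT1. Both drugs together raised THBS1 (thrombospondin) and TUBB1, raised the cyclooxygenase PTGS1, and lowered the ADP receptor P2RY1 and the thrombin receptor F2R. Calls among the 21 tested members numbered 6 with GSK343 (28.6%), 6 with X5050 (28.6%) and 9 with both drugs (42.9%), beside 12.4%, 12.6% and 36.4% of all 19224 tested genes. All 12 single-drug calls were rises, beside 9.12% of all genes called higher and 3.31% lower with GSK343, and 5.34% higher and 7.23% lower with X5050. With both drugs 7 rose and 2 fell, beside 19.2% and 17.3% of all genes. Other cell markers moved too. With GSK343 the 9 endothelial markers summed to 8.78 to 14.4 CPM, against 2.23 to 2.48 CPM with DMSO, and both tested ones rose, with CDH5 and EMCN at 0 in both groups. Most of each sum was the single gene ESAM, at 7.16 and 12.7 CPM with GSK343 and 1.86 and 2.40 CPM with DMSO. The erythroid markers summed to 1751 to 2349 CPM with GSK343, against 2543 to 2684 CPM with DMSO, and 3 of 18 fell and none rose. Of these 18, 2 rose and 1 fell with X5050, and 8 rose and 3 fell with both drugs. The part of these markers in the members' calls was not tested. The members' median log2 fold change was 0.42 with GSK343, 0.46 with X5050 and 0.25 with both drugs. Whichever library of the comparison was left out, fewer members were called for both drugs. For GSK343 fewer were called without the second GSK343 library, and for X5050 fewer without the first DMSO or first X5050 library.

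**Figure D1:**
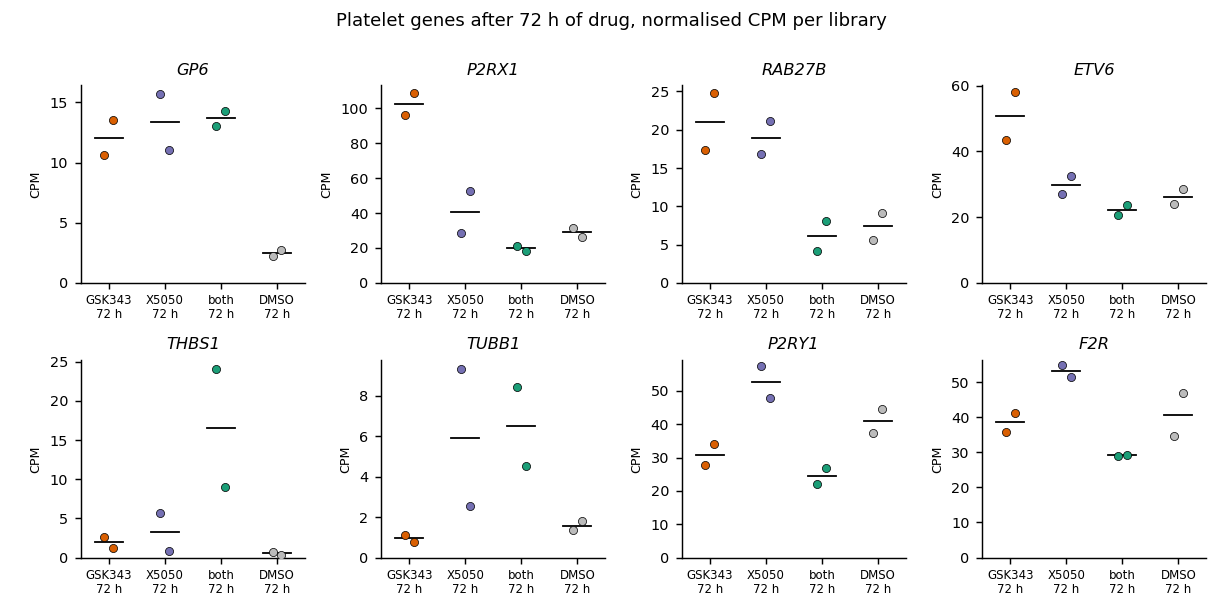
Levels of 8 members in each library after 72 h, in CPM on linear axes from 0, with GSK343, X5050, both drugs and DMSO from left to right. Points are libraries (n = 2 per group) and bars are group means. GP6 is at 10.6 to 15.7 CPM in every treated library against 2.27 and 2.76 CPM with DMSO, while P2RX1, RAB27B and ETV6 are high with GSK343 and not with both drugs.

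Among the adhesion receptors, GP6 had 10.6 and 13.5 CPM with GSK343, 15.7 and 11.01 CPM with X5050, 13.1 and 14.3 CPM with both drugs, and 2.27 and 2.76 CPM with DMSO. The 6 treated libraries lay together, well above both DMSO libraries. The log2 fold change was 2.26 ± 0.23 with GSK343 (adjusted p = 1.12e-05), 2.41 ± 0.23 with X5050 (adjusted p = 9.76e-06) and 2.44 ± 0.23 with both drugs (adjusted p = 7.32e-07). All 3 calls held with any 1 library left out. CD226, a receptor of the immunoglobulin superfamily found on platelets and lymphocytes, had 5.17 and 3.55 CPM with GSK343, 4.95 and 5.12 CPM with X5050, 2.19 and 3.05 CPM with both drugs, and 2.15 and 2.80 CPM with DMSO. It rose with X5050 (log2 fold change 1.02 ± 0.27, adjusted p = 0.0216), a call lost without the first DMSO or first X5050 library (adjusted p up to 0.0806). With GSK343 the groups did not overlap but the test was missed (log2 fold change 0.81 ± 0.27, adjusted p = 0.062). GP1BA was at 0.0960 to 0.658 CPM over the drug libraries and was not called in any comparison.

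Among granule and secreted proteins, THBS1 had 2.62 and 1.23 CPM with GSK343, 5.66 and 0.804 CPM with X5050, 24.0 and 9.004 CPM with both drugs, and 0.743 and 0.3201 CPM with DMSO. It rose with both drugs (log2 fold change 4.95 ± 1.03, adjusted p = 0.00796). The DMSO libraries held 18 and 8 THBS1 counts, and the call was lost without either of them (adjusted p up to 0.0733). Neither single drug passed the test for THBS1 (adjusted p = 0.374 with GSK343 and 0.182 with X5050), and its libraries differed widely within each treated group. SPARC, a matrix protein of platelet alpha granules and also of stromal cells, had 24.2 and 31.6 CPM with GSK343, 15.7 and 16.7 CPM with X5050, 21.6 and 22.7 CPM with both drugs, and 12.3 and 17.4 CPM with DMSO. It rose with GSK343 (log2 fold change 0.91 ± 0.17, adjusted p = 0.00206) and with both drugs (0.58 ± 0.17, adjusted p = 0.0133). The first call was lost without the second GSK343 library (adjusted p = 0.0692), the second without the first DMSO library or the second library of both drugs (adjusted p up to 0.131). The 7 fibroblast markers summed to 22.0 to 22.3 CPM with GSK343, 8.28 to 11.4 CPM with both drugs and 5.84 to 7.06 CPM with DMSO. Most of each sum was COL1A1, at 16.3 and 19.7 CPM with GSK343, 9.64 and 6.60 CPM with both drugs, and 5.08 and 4.04 CPM with DMSO. Of the 4 fibroblast markers tested, 1 rose with GSK343 and 1 with both drugs, and none fell. The part of these markers in the SPARC result with drugs was not tested. ANGPT1, which signals to endothelial and stem cells and is stored in platelets, had 38.8 and 57.1 CPM with GSK343, 58.7 and 65.5 CPM with X5050, 31.3 and 28.6 CPM with both drugs, and 28.2 and 47.7 CPM with DMSO. The rise with X5050 (0.71 ± 0.21, adjusted p = 0.0444) was lost without the first DMSO library or either X5050 library (adjusted p up to 0.157).

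Among genes of the cytoskeleton and granule traffic, RAB27B stood out by its pattern. It had 17.3 and 24.8 CPM with GSK343, 16.8 and 21.1 CPM with X5050, 4.16 and 8.13 CPM with both drugs, and 5.62 and 9.16 CPM with DMSO. The rise was 1.51 ± 0.29 with GSK343 (adjusted p = 0.00429) and 1.36 ± 0.29 with X5050 (adjusted p = 0.00855) on the log2 scale. Without the second GSK343 library or the first DMSO library these calls narrowly missed the threshold (adjusted p = 0.054 and 0.0558). TUBB1, the tubulin of the platelet marginal band, had 1.13 and 0.772 CPM with GSK343, 9.33 and 2.52 CPM with X5050, 8.41 and 4.54 CPM with both drugs, and 1.36 and 1.80 CPM with DMSO. It rose with X5050 (1.91 ± 0.54, adjusted p = 0.0398) and with both drugs (2.02 ± 0.54, adjusted p = 0.0118). Both calls were lost without either DMSO library or without the first library of the treated group (adjusted p up to 0.414 for X5050 and 0.137 for both drugs). The X5050 library with more TUBB1 was also the one with the erythroid sum of 6311 CPM, against 3142 CPM in the other and 2543 to 2684 CPM with DMSO, and the part of this in the result was not tested. FERMT3, the kindlin that activates integrins in blood cells, had 213 and 232 CPM with GSK343, 257 and 226 CPM with X5050, 209 and 208 CPM with both drugs, and 156 and 177 CPM with DMSO. Its rises were small, 0.42 ± 0.12 with GSK343 (adjusted p = 0.0263), 0.54 ± 0.12 with X5050 (adjusted p = 0.00696) and 0.32 ± 0.12 with both drugs (adjusted p = 0.0385). The rise with X5050 was lost without the first X5050 library (adjusted p = 0.0727). For GSK343 and for both drugs FERMT3 was lost without the first DMSO library or either treated library (adjusted p up to 0.282), and with a GC content trend removed its value for both drugs turned to -0.01 (adjusted p = 0.946).

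Of the transcription factors ETV6 was the one called against DMSO. ETV6, an ETS repressor needed for platelet formation, had 43.6 and 58.2 CPM with GSK343, 26.9 and 32.5 CPM with X5050, 20.5 and 23.8 CPM with both drugs, and 24.0 and 28.4 CPM with DMSO. Its rise with GSK343 (0.95 ± 0.16, adjusted p = 0.000829) held with any 1 library left out. RUNX1 had 205 and 199 CPM with GSK343, 105 and 141 CPM with X5050, 95.3 and 129 CPM with both drugs, and 155 and 87.8 CPM with DMSO, and was not called against DMSO, with a log2 fold change of 0.73 ± 0.23 with GSK343 (adjusted p = 0.065). MEIS1 ranged from 8.00 to 12.7 CPM over these libraries and was not called either.

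Agonist receptors went different ways with different drugs. P2RX1 had 96.0 and 109 CPM with GSK343, 28.5 and 52.9 CPM with X5050, 21.0 and 18.4 CPM with both drugs, and 31.5 and 26.2 CPM with DMSO. It rose with GSK343 by 1.83 ± 0.22 on the log2 scale (adjusted p = 0.000169), and the call held with any 1 library left out. P2RY1 had 27.8 and 34.0 CPM with GSK343, 57.4 and 47.8 CPM with X5050, 22.1 and 26.9 CPM with both drugs, and 37.2 and 44.5 CPM with DMSO. With both drugs it fell by 0.74 on the log2 scale (standard error 0.15, adjusted p = 0.000943), and no left-out library ended that call. F2R had 35.7 and 41.3 CPM with GSK343, 55.0 and 51.5 CPM with X5050, 28.9 and 29.3 CPM with both drugs, and 34.5 and 46.9 CPM with DMSO. Its fall with both drugs (-0.48 ± 0.14, adjusted p = 0.0135) was lost without the second DMSO library or either library of both drugs (adjusted p up to 0.17).

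Of the remaining members, LAT, the adaptor that carries the GP6 signal, had 0.425 and 0.216 CPM with GSK343, 0.509 and 0.695 CPM with X5050, 0.920 and 1.30 CPM with both drugs, and 0.248 and 0.400 CPM with DMSO. It rose with both drugs (1.76 ± 0.49, adjusted p = 0.0101), with 6 and 10 counts in the DMSO libraries, and the call was lost without the first DMSO library or the second library of both drugs (adjusted p up to 0.0837). LAT shares 47.7% of its exonic bases with AC109460.3 on the same strand, which also rose with both drugs (2.89 ± 0.80, adjusted p = 0.00944), so the LAT value is uncertain. PTGS1, the platelet cyclooxygenase, had 19.98 and 21.9 CPM with GSK343, 26.1 and 19.5 CPM with X5050, 25.5 and 27.9 CPM with both drugs, and 15.8 and 17.8 CPM with DMSO. It rose with both drugs (0.67 ± 0.16, adjusted p = 0.00307), also with any 1 library left out. Thromboxane synthase (TBXAS1), myosin light chain 9 (MYL9), the granule assembly gene NBEAL2 and pleckstrin (PLEK) were not called against DMSO after 72 h.

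The design also allows a test of whether the drugs act additively, that is, whether X5050 changes a gene by the same log2 amount with GSK343 present as without it. For 9 of the 21 tested members it did not (42.9%, beside 18.8% of all tested genes), and in all 9 the effect of X5050 was lower with GSK343 present, a direction called for 9.04% of all genes, with 9.75% called the other way. RAB27B showed the largest difference, -3.12 ± 0.41 on the log2 scale (adjusted p = 0.000291): its level was high with either drug alone, and with both it overlapped that of DMSO. P2RX1 differed by -2.87 ± 0.31 (adjusted p = 8.95e-05) and ETV6 by -1.38 ± 0.22 (adjusted p = 0.00061), both called with GSK343 and not with X5050. GP6 differed by -2.23 ± 0.30 (adjusted p = 0.000166), its level with both drugs lying within the range of the single drugs. CD226 and ANGPT1, called with X5050, differed by -1.75 ± 0.38 and -1.39 ± 0.30 (adjusted p = 0.00511 and 0.00659). F2R, P2RY1 and FERMT3 differed by -0.79 ± 0.20, -0.70 ± 0.20 and -0.64 ± 0.16 (adjusted p = 0.0113, 0.026 and 0.0134). The calls for P2RY1 and FERMT3 did not stand with each library left out: P2RY1 was lost without the first DMSO, first X5050, first combined or second GSK343 library (adjusted p up to 0.127) and FERMT3 without the second combined or second GSK343 library (adjusted p up to 0.0583). The 4 groups behind these values are the same that gave the 72 h comparisons.

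Adding X5050 to GSK343 lowered 7 of the 21 tested members and raised 3, beside 20.5% and 18.9% of all genes and 39.4% in either direction. P2RX1 was lower with both drugs than with GSK343 by 2.38 on the log2 scale (log2 fold change -2.38 ± 0.23, adjusted p = 4.2e-06), RAB27B by 1.77 (log2 fold change -1.77 ± 0.29, adjusted p = 0.000357) and ETV6 by 1.20 (-1.20 ± 0.16, adjusted p = 2.34e-05). RUNX1, at 95.3 and 129 CPM with both drugs and 205 and 199 CPM with GSK343, fell by 0.85 on the log2 scale (standard error 0.23, adjusted p = 0.0137), a call lost without the first library of both drugs (adjusted p = 0.108). TUBB1 was higher with both drugs than with GSK343 (2.76 ± 0.56, adjusted p = 0.00233), and its call held with any 1 library left out. Leaving out either library of both drugs or the second GSK343 library left 5 to 6 of the 10 calls. Adding GSK343 to X5050 raised none of the 21 and lowered 6 (30.3% of all genes were called in either direction, 17.5% higher and 12.8% lower): CD226, ANGPT1, RAB27B, F2R, P2RY1 and P2RX1. Of these P2RY1 had a log2 fold change of -1.10 ± 0.15 (adjusted p = 4.11e-05) and RAB27B of -1.62 ± 0.29 (adjusted p = 0.00102). The CD226 call was lost without the first library of both drugs (adjusted p = 0.154) and the other 5 stood with any library left out. Every value in this paragraph comes from libraries already described above.

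With both drugs for 8, 24 and 72 h, the members did not move as a block. Of the 21 tested members 6 had their highest mean level at 8 h, 7 at 24 h, 5 at 72 h and 3 in DMSO. GP6 was called against DMSO at each time and THBS1 came up between 8 and 24 h. TUBB1 and CD226 were high at 8 h and low at 24 h, whereas MYL9, TBXAS1 and P2RX1 were low at 8 h and higher again at 24 h. TBXAS1 and P2RX1 were then close to DMSO, while MYL9 stood at 1.34 and 1.24 CPM, below the 1.94 and 2.00 CPM of DMSO. Against DMSO, 12 members were called at 8 h (5 higher and 7 lower, 57.1%) and 7 at 24 h (5 higher and 2 lower, 33.3%), beside 43.0% and 43.1% of all genes. By direction, 21.8% of all genes were higher and 21.2% lower at 8 h, and 22.0% and 21.1% at 24 h. Of all genes 18.4% were higher and 17.4% lower at 24 h than at 8 h, and 24.1% and 21.8% at 72 h than at 24 h. Between 8 and 24 h 12 members were called (10 higher and 2 lower at 24 h) and between 24 and 72 h another 12 (5 higher and 7 lower at 72 h), beside 35.8% and 45.9% of all genes in either direction. The last count was 5 to 7 without either 24 h library or without the first 72 h library. These comparisons share libraries, so their values are given side by side.

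**Figure D2:**
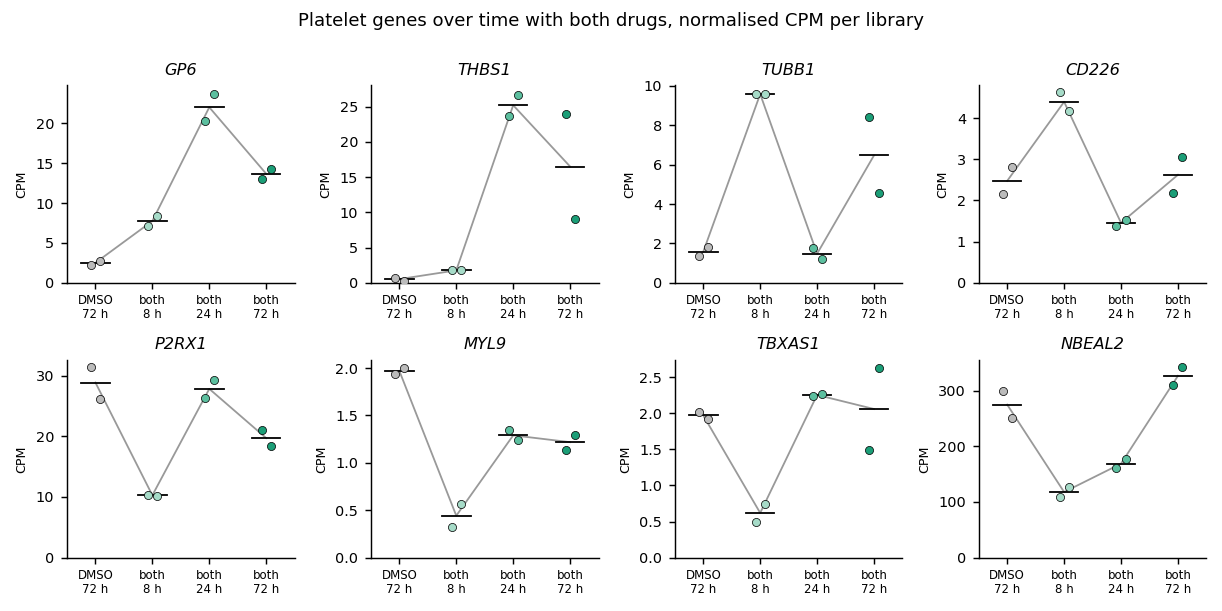
Levels of 8 members with DMSO (72 h) and with both drugs for 8, 24 and 72 h, in CPM on linear axes from 0. Points are libraries (n = 2 per group), bars are group means and grey lines join the means. GP6 and THBS1 peak at 24 h, TUBB1 and CD226 dip there, and P2RX1, MYL9, TBXAS1 and NBEAL2 are lowest at 8 h.

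GP6 had 2.27 and 2.76 CPM with DMSO, 7.12 and 8.39 CPM at 8 h, 20.4 and 23.7 CPM at 24 h, and 13.1 and 14.3 CPM at 72 h. No 2 of these groups overlapped. Against DMSO the log2 fold change was 1.62 ± 0.23 at 8 h (adjusted p = 3.46e-05) and 3.13 ± 0.23 at 24 h (adjusted p = 3.75e-08), and both held with any 1 library left out. The decline between 24 and 72 h (-0.69 ± 0.20, adjusted p = 0.00896) was lost without the second 24 h or the first 72 h library (adjusted p up to 0.089). THBS1 had 0.743 and 0.3201 CPM with DMSO, 1.76 and 1.79 CPM at 8 h, 23.7 and 26.7 CPM at 24 h, and 24.0 and 9.004 CPM at 72 h. Its rise against DMSO at 24 h (5.56 ± 1.02, adjusted p = 0.00374) held with any 1 library left out. Its change between 8 and 24 h (3.83 ± 0.85, adjusted p = 0.0112) was lost without either 8 h library or the second 24 h library (adjusted p up to 0.0888). SPARC had 12.3 and 17.4 CPM with DMSO, 27.6 and 25.5 CPM at 8 h, 36.4 and 36.5 CPM at 24 h, and 21.6 and 22.7 CPM at 72 h. It was called higher than DMSO at 8 h (0.84 ± 0.17, adjusted p = 0.000775) and 24 h (1.29 ± 0.17, adjusted p = 1.54e-05), and lower at 72 h than at 24 h (-0.72 ± 0.16, adjusted p = 0.00197), each also with any 1 library left out.

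TUBB1 had 1.36 and 1.80 CPM with DMSO, 9.61 and 9.57 CPM at 8 h, 1.76 and 1.20 CPM at 24 h, and 8.41 and 4.54 CPM at 72 h. It was thus high early, at the DMSO level at 24 h and high again. The change between 8 and 24 h was -2.69 ± 0.52 (adjusted p = 0.00211) with no left-out library ending the call, and that between 24 and 72 h was 2.12 ± 0.53 (adjusted p = 0.00656), lost without the second 24 h or first 72 h library (adjusted p up to 0.0665). The 8 h rise against DMSO (2.60 ± 0.53, adjusted p = 0.00215) was lost without the first DMSO library (adjusted p = 0.0594). CD226 had 2.15 and 2.80 CPM with DMSO, 4.63 and 4.16 CPM at 8 h, 1.38 and 1.54 CPM at 24 h, and 2.19 and 3.05 CPM at 72 h. Its drop between 8 and 24 h (-1.59 ± 0.28, adjusted p = 0.000369) held with any 1 library left out. The erythroid markers summed to 2543 to 2684 CPM with DMSO, 5516 to 6009 CPM at 8 h, 5892 to 5918 CPM at 24 h and 4967 to 6392 CPM at 72 h. Their part in the TUBB1 and CD226 values was not tested.

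Other members were lowest at 8 h. P2RX1 had 31.5 and 26.2 CPM with DMSO, 10.4 and 10.2 CPM at 8 h, 26.4 and 29.3 CPM at 24 h, and 21.0 and 18.4 CPM at 72 h. It fell at 8 h by 1.49 on the log2 scale (standard error 0.23, adjusted p = 0.000167), and MYL9 fell by 2.13 (standard error 0.35, adjusted p = 0.000157) and TBXAS1 by 1.66 (standard error 0.34, adjusted p = 0.00108). NBEAL2, which is needed to form alpha granules, was at 251 to 299 CPM with DMSO, 109 to 127 CPM at 8 h, 161 to 177 CPM at 24 h and 310 to 343 CPM at 72 h. Its log2 fold change was -1.22 ± 0.12 at 8 h (adjusted p = 1.95e-06) and -0.70 ± 0.12 at 24 h (adjusted p = 0.000232), and all 4 of these genes kept their 8 h calls with any 1 library left out. Myeloid markers were also lower then: the 14 summed to 89.9 to 91.2 CPM with DMSO, 44.3 to 45.1 CPM at 8 h, 57.2 CPM in both libraries at 24 h and 57.8 to 68.8 CPM at 72 h, and 7 of 11 tested fell at 8 h with none rising. Their part in these falls was not tested. PTGS1 had 15.8 and 17.8 CPM with DMSO, 11.2 and 12.2 CPM at 8 h, 18.7 and 20.3 CPM at 24 h, and 25.5 and 27.9 CPM at 72 h. Its fall at 8 h (-0.52 ± 0.16, adjusted p = 0.0136) was lost without the first 8 h or the second DMSO library (adjusted p up to 0.134). FERMT3 had 156 and 177 CPM with DMSO, 115 and 135 CPM at 8 h, 278 and 287 CPM at 24 h, and 209 and 208 CPM at 72 h, and its rise at 24 h was 0.76 ± 0.12 (adjusted p = 7.47e-05).

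Some of the calls over time moved when a trend with GC content was removed from each library. With that trend removed FERMT3 at 8 h turned to 0.04 (adjusted p = 0.793), and NBEAL2 kept its fall at 8 h (-0.73, adjusted p = 0.000108) but not at 24 h (-0.20, adjusted p = 0.15) or between 24 and 72 h (0.11, adjusted p = 0.472). The 24 to 72 h calls of ANGPT1, P2RY1 and PTGS1 and the 8 h call of CD226 were lost as well (adjusted p = 0.581, 0.45, 0.104 and 0.157). GP6, THBS1 and SPARC kept their calls against DMSO at 24 h, with values of 3.33, 5.48 and 1.24 on the log2 scale. P2RX1, MYL9 and TBXAS1 kept theirs at 8 h, with -1.16, -1.74 and -1.48.

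Several members were higher in the excised lines than in EV. SPARC and RAB27B rose in all 3 excised lines, TUBB1 in DKO and S1KO, and THBS1 in DKO, while GP6 was not called. GP1BB also rose in all 3 lines and is in each count that follows, but its values are uncertain because it shares bases with SEPT5 and SEPT5-GP1BB. Of 25 tested members 6 were called in DKO (24.0%), 5 in S1KO (20%) and 4 in S2KO (16.0%), beside 8.77%, 3.67% and 2.01% of 21285 tested genes. The replicates of EV, S1KO and S2KO deviated together (correlations 0.488 to 0.622), while those of DKO did not (-0.084 to -0.059). The fit behind these calls has no term for this, and counts with a replicate block are given in the last section. All single-gene calls in excised cells below, met or missed, come from the fit without that term. Rises numbered 5, 5 and 3, beside 5.41%, 2.44% and 1.45% of all genes called higher, and falls 1, 0 and 1, beside 3.35%, 1.23% and 0.554% called lower. The members' median log2 fold change was 0.17 in DKO, 0.72 in S1KO and -0.26 in S2KO. In S1KO and in S2KO fewer members were called whichever 1 of the 4 libraries compared was left out. The 3 comparisons share the EV libraries, and whether the libraries of a group came from separately edited cells is not given. The p-values therefore need not measure the spread between separately edited lines.

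**Figure D3:**
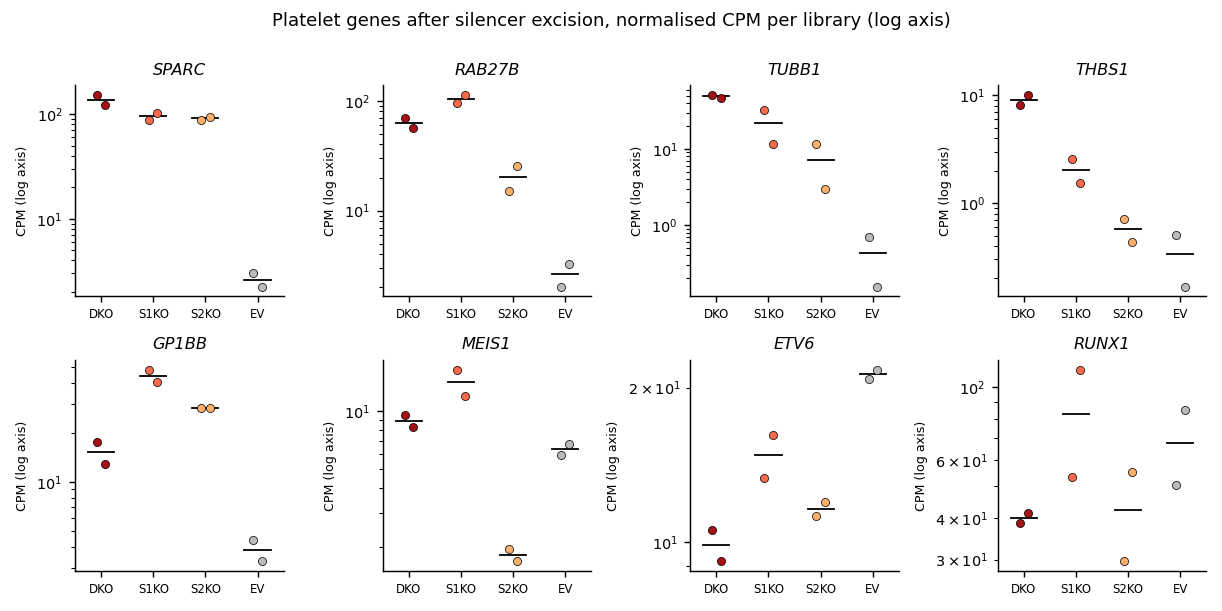
Levels of 8 members in DKO, S1KO, S2KO and EV cells, from left to right, in CPM on log axes. Points are libraries (n = 2 per group) and bars are group means. SPARC, RAB27B and GP1BB lie above EV in every excised library, and the RUNX1 libraries of S1KO, S2KO and EV overlap.

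SPARC had 153 and 121 CPM in DKO, 89.0 and 103 CPM in S1KO, 88.2 and 94.8 CPM in S2KO, and 2.998 and 2.23 CPM in EV. Its log2 fold change was 5.71 ± 0.24 in DKO (adjusted p = 0.000171), 5.20 ± 0.24 in S1KO (adjusted p = 0.000274) and 5.13 ± 0.24 in S2KO (adjusted p = 0.000723). Another matrix gene, COL1A2, was at 125 and 104 CPM in DKO and 7.56 and 6.70 CPM in S1KO, but at 0.579 and 0.342 CPM in S2KO and 0.430 and 0.346 CPM in EV. In DKO and S1KO it made up most of the 7 summed fibroblast markers, 109 to 131 CPM in DKO, 9.12 to 10.7 CPM in S1KO, 2.37 to 3.41 CPM in S2KO and 2.57 to 3.28 CPM in EV. Of the 6 fibroblast markers tested, 2 rose in DKO, 1 in S1KO and 0 in S2KO, and none fell. COL1A1 had 3.53 and 2.16 CPM in DKO and 0.392 and 0.538 CPM in EV, THY1 had 14 and 14 counts in DKO and 1 and 2 counts in EV, and LUM was at 0 in DKO, S1KO and EV. The part of these markers in the SPARC result was not tested.

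RAB27B had 69.5 and 56.7 CPM in DKO, 95.7 and 113 CPM in S1KO, 15.05 and 25.5 CPM in S2KO, and 2.02 and 3.29 CPM in EV. The log2 fold change was 4.57 ± 0.37 in DKO (adjusted p = 0.00117), 5.29 ± 0.38 in S1KO (adjusted p = 0.00119) and 2.93 ± 0.35 in S2KO (adjusted p = 0.0116), the last lost without the first EV library (adjusted p = 0.0575). TUBB1 had 51.0 and 46.7 CPM in DKO, 32.3 and 11.5 CPM in S1KO, 11.5 and 3.01 CPM in S2KO, and 0.708 and 0.155 CPM in EV. Every excised library was above both EV libraries, and the first library was the higher in S1KO, S2KO and EV alike. The fit has no term for this shared order. TUBB1 rose in DKO (6.82 ± 1.06, adjusted p = 0.0117) and S1KO (5.67 ± 1.01, adjusted p = 0.0334). In S2KO TUBB1 missed the threshold (4.07 ± 0.95, adjusted p = 0.111), which does not show that it was unchanged there. Its DKO call was lost without either DKO library or the second EV library (adjusted p up to 0.0587), and its S1KO call without any 1 of the 4 libraries (adjusted p up to 0.138). TUBB1 shares 34.0% of its exonic bases with ATP5F1E on the opposite strand, whose log2 fold changes were 0.11, 0.09 and 0.01 in DKO, S1KO and S2KO.

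THBS1 had 8.15 and 10.1 CPM in DKO, 2.56 and 1.52 CPM in S1KO, 0.708 and 0.434 CPM in S2KO, and 0.506 and 0.167 CPM in EV. The rise in DKO (4.76 ± 0.62, adjusted p = 0.00617) held with any 1 library left out, and S1KO missed the threshold (2.60 ± 0.58, adjusted p = 0.066). ANGPT1 had 72.4 and 71.3 CPM in DKO, 148 and 173 CPM in S1KO, 67.6 and 59.8 CPM in S2KO, and 87.5 and 85.0 CPM in EV. Its rise in S1KO (0.90 ± 0.14, adjusted p = 0.022) was lost without any 1 of the 4 libraries (adjusted p up to 0.154). GP1BB had 17.5 and 12.8 CPM in DKO, 48.4 and 40.7 CPM in S1KO, 28.1 and 28.3 CPM in S2KO, and 4.44 and 3.27 CPM in EV. It rose by 1.97 ± 0.24, 3.53 ± 0.25 and 2.87 ± 0.24 on the log2 scale (adjusted p = 0.00464, 0.00108 and 0.00389 in DKO, S1KO and S2KO), each also with any 1 library left out. All exonic bases of GP1BB lie within the readthrough gene SEPT5-GP1BB on the same strand, which rose too (2.05, 1.55 and 1.11), as did SEPT5 (1.42, 1.44 and 1.06). Reads of these 3 genes cannot be fully told apart, so the GP1BB values are uncertain.

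Among the transcription factors, ETV6 had 10.6 and 9.18 CPM in DKO, 13.3 and 16.2 CPM in S1KO, 11.3 and 11.99 CPM in S2KO, and 20.8 and 21.7 CPM in EV. All 6 excised libraries were below both EV libraries. The fall passed the test in DKO (-1.11 ± 0.19, adjusted p = 0.0146), was lost there without either DKO library or the second EV library (adjusted p up to 0.164), and missed it in S1KO and S2KO (adjusted p = 0.223 and 0.082). MEIS1, a homeobox factor of stem cells and megakaryocytes, had 9.48 and 8.24 CPM in DKO, 16.3 and 11.9 CPM in S1KO, 1.94 and 1.68 CPM in S2KO, and 5.91 and 6.77 CPM in EV. It fell in S2KO (-1.81 ± 0.25, adjusted p = 0.0191), a call lost without any 1 of the 4 libraries (adjusted p up to 0.104), while S1KO lay on the other side of EV (1.15 ± 0.24, adjusted p = 0.056). RUNX1 had 38.7 and 41.4 CPM in DKO, 53.4 and 113 CPM in S1KO, 29.6 and 55.4 CPM in S2KO, and 50.6 and 84.9 CPM in EV, with no call. Its transcripts ENST00000344691 and ENST00000358356 held 20.3% to 37.0% and 18.6% to 35.3% of the gene's TPM over the 8 libraries.

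Of the members without a call in excised cells, GP6 had 0.548 and 0.404 CPM in DKO, 1.07 and 1.25 CPM in S1KO, 0.348 and 0.158 CPM in S2KO, and 0.696 and 0.227 CPM in EV. Both S1KO libraries were above EV, short of the threshold (1.32 ± 0.60, adjusted p = 0.371). CD226 had 1.81 and 2.08 CPM in DKO, 0.728 and 2.22 CPM in S1KO, 2.90 and 7.40 CPM in S2KO, and 0.291 and 1.04 CPM in EV, again with an unequal pair in every group but DKO. In S1KO, S2KO and EV the second CD226 library was the higher, and the fit has no term for this shared order. Both S2KO libraries were above both EV libraries, so the missing call does not show that CD226 was unchanged. P2RX1 had 7.0004 and 4.48 CPM in DKO, 13.6 and 23.4 CPM in S1KO, 6.23 and 18.4 CPM in S2KO, and 17.1 and 34.3 CPM in EV, and PTGS1 had 46.3 and 35.0 CPM in DKO, 42.0 and 35.6 CPM in S1KO, 13.8 and 10.4 CPM in S2KO, and 25.2 and 22.0 CPM in EV. In DKO P2RX1 was at -2.16 ± 0.61 and PTGS1 at 0.79 ± 0.22 on the log2 scale, both with an adjusted p of 0.081. FERMT3 had 252 and 216 CPM in DKO, 231 and 243 CPM in S1KO, 171 and 109 CPM in S2KO, and 193 and 142 CPM in EV. F2R at 31.7 to 43.9 CPM, P2RY1 at 45.6 to 71.0 CPM and LAT at 0.884 to 1.93 CPM over the 8 libraries showed no call.

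Beside these results, erythroid genes were also higher in the excised lines. Their 18 markers summed to 18864 to 22129 CPM in DKO, 9878 to 17780 CPM in S1KO, 6565 to 14286 CPM in S2KO and 2981 to 6825 CPM in EV, and 7, 2 and 4 of the 18 rose with none falling. Endothelial markers summed to 1.81 to 2.05 CPM in DKO, 1.00 to 1.15 CPM in S1KO, 0.772 to 1.12 CPM in S2KO and 0.797 to 0.896 CPM in EV, with no call among the 3 tested, and 14 myeloid markers to 45.7 to 61.5 CPM in DKO, 80.2 to 83.1 CPM in S1KO, 30.4 to 59.4 CPM in S2KO and 123 to 163 CPM in EV. The part of these in the platelet genes was not tested.

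Compared per length, in TPM (transcript abundance corrected for length and depth), which only the excision tables give, the order of levels in EV was led by FERMT3 at 62.6 ± 17.4 TPM (SD, n = 2), NBEAL2 at 31.0 ± 0.8 and ANGPT1 at 24.1 ± 1.8. RUNX1 (14.5 ± 6.2), P2RY1 (11.1 ± 2.0), P2RX1 (9.94 ± 2.98) and F2R (7.39 ± 1.61) followed, and neighbours among these 4 lay within each other's spread. PTGS1 stood at 4.59 ± 1.48 TPM, ETV6 at 2.79 ± 0.19, MEIS1 at 2.42 ± 0.15, GP1BB at 1.81 ± 0.46, SPARC at 1.39 ± 0.25 and TBXAS1 at 1.23 ± 0.35, with the remaining members under 1 TPM. In DKO the order changed at the top, with FERMT3 at 95.7 ± 7.8 TPM and SPARC at 91.5 ± 14.4 TPM. SPARC stood at 62.9 ± 8.1 TPM in S1KO and 53.3 ± 0.3 TPM in S2KO. In DKO SPARC thus came within the spread of FERMT3, while the granule genes PF4, PPBP and VWF stayed under 1 TPM in every group mean.

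Called both in a drug comparison with DMSO at 72 h and in an excised line were ANGPT1, ETV6, RAB27B, SPARC, THBS1 and TUBB1. MEIS1 and GP1BB were called in an excised line only, and GP1BB was not tested with drugs. The share of all genes called in both experiments was not computed. The comparison of both drugs at 72 h with DMSO by itself called 36.4% of all tested genes. This overlap is therefore not set apart from that of all genes. Side by side, RAB27B stood at 1.51 with GSK343, 1.36 with X5050, -0.26 with both drugs, 4.57 in DKO, 5.29 in S1KO and 2.93 in S2KO on the log2 scale. GP6 stood at 2.26, 2.41 and 2.44 with the drugs in that order, and at 0.05, 1.32 and -0.86 in DKO, S1KO and S2KO. ETV6 was higher with GSK343 and lower in DKO. Whether drugs and excision differ in any of these genes was not tested, since the experiments were counted by different programs.

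**Figure D4:**
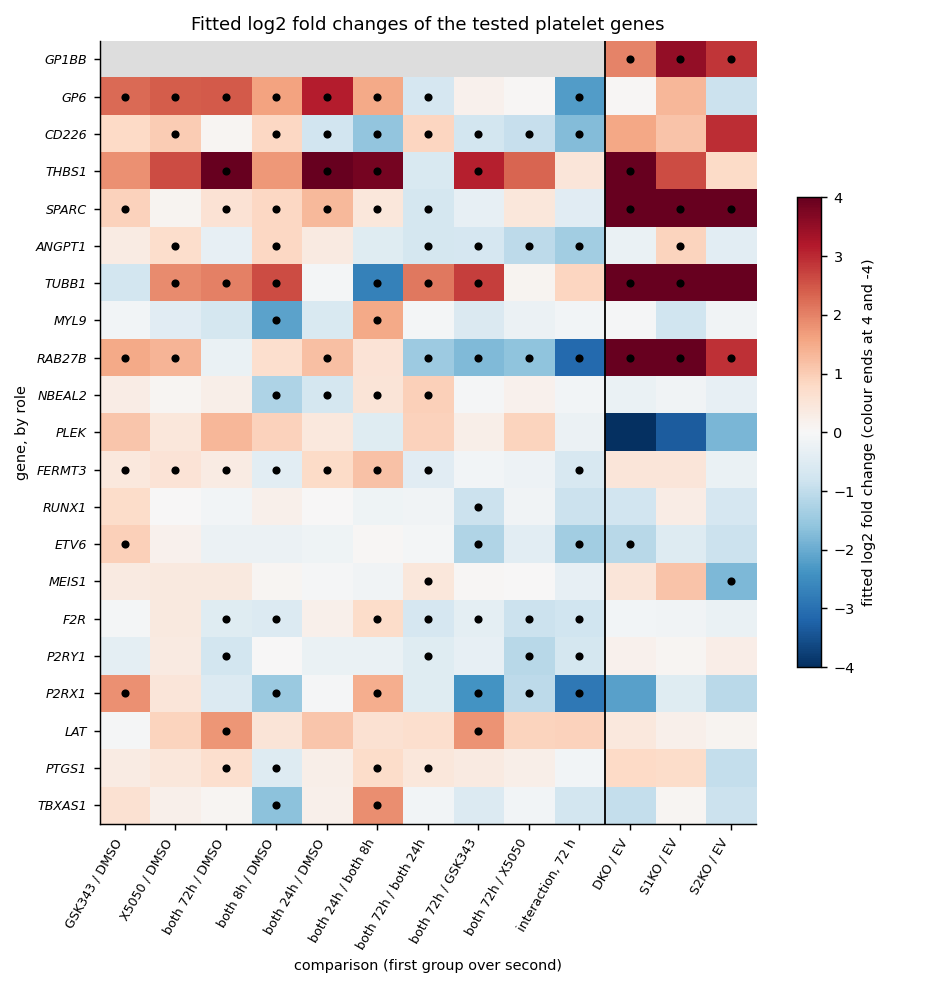
Fitted log2 fold changes of 21 members in 13 comparisons, genes in rows by role and comparisons in columns, each naming the first group over the second. Red is higher and blue lower in the first group, the colour ends at 4 and -4, black dots mark calls and grey means not tested; 5 tested members under a mean of 1 CPM in every group are left out. GP6 is red under every drug treatment against DMSO, the interaction column is mostly blue, and SPARC, RAB27B, TUBB1 and GP1BB are red in the excision columns.

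Other genes of the platelet pathway, a list of 45 without the members, had 40 tested in each experiment. With GSK343 14 rose and 3 fell, with X5050 9 and 4, with both drugs for 72 h 13 and 11, then 5 and 2 in DKO, 3 and 2 in S1KO, while in S2KO 0 rose and 3 fell. Of all tested genes 9.12% rose and 3.31% fell with GSK343, 5.34% and 7.23% with X5050, and 19.2% and 17.3% with both drugs. In excised cells these shares were 5.41% and 3.35% in DKO, 2.44% and 1.23% in S1KO, and 1.45% and 0.554% in S2KO. ITGA2B and ITGB3 encode the 2 chains of the fibrinogen receptor and did not move together. ITGA2B had 47.4 and 37.6 CPM with GSK343, 24.4 and 20.6 CPM with X5050, 9.11 and 12.7 CPM with both drugs, and 18.4 and 13.4 CPM with DMSO; it rose with GSK343 (1.42 ± 0.19, adjusted p = 0.000149) and fell with both drugs (-0.53 ± 0.19, adjusted p = 0.041). ITGB3 had 1.35 and 0.957 CPM with GSK343, 4.44 and 3.51 CPM with X5050, 12.9 and 8.51 CPM with both drugs, and 0.785 and 0.440 CPM with DMSO; it rose with X5050 (2.70 ± 0.33, adjusted p = 0.000114) and with both drugs (4.12 ± 0.32, adjusted p = 1.07e-07). Neither passed the test in an excised line.

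Further genes of this list with the lowest p over the 3 comparisons at 72 h were PDGFA, PDGFB, TGFB1, MYH10 and CD9. PDGFA, a platelet growth factor chain, had 19.8 and 16.4 CPM with GSK343, 23.8 and 19.7 CPM with X5050, 48.0 and 52.7 CPM with both drugs, and 3.72 and 3.20 CPM with DMSO, and rose in all 3 (2.39, 2.65 and 3.86 on the log2 scale). PDGFB rose in all 3 too (2.64, 3.91 and 3.96), with 4 and 3 counts in the DMSO libraries. TGFB1 rose with X5050 and with both drugs (0.58 and 1.11), and the nonmuscle myosin MYH10 fell in all 3 (-0.58, -0.64 and -1.42). The tetraspanin CD9 had 14.2 and 8.55 CPM with both drugs and 1.36 and 1.00 CPM with DMSO (3.26 ± 0.33, adjusted p = 1.87e-06). In excised cells CD9 had 284 and 262 counts in DKO, 41 and 46 counts in S1KO, 13 and 9 counts in S2KO, and 4 and 3 in EV, and rose in DKO (6.67 ± 0.41, adjusted p = 0.000392) and S1KO (3.35 ± 0.39, adjusted p = 0.00695).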

How the data were processed

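Total RNA of K562 cells was sequenced from stranded, rRNA-depleted libraries, per the labels' protocols. Reads were trimmed with Trimmomatic 0.38 and assigned with STAR 2.7.3a or kallisto 0.44.0 against hg19, per the submitters' processing notes. The annotation release and kallisto's strand setting are not given in the sources used here. The authors deposited raw counts per gene for the drug experiment, and estimated counts and TPM per transcript for the excision experiment. In the drug tables the reverse-strand column was used (8.01 to 9.77 times the forward column), and reads naming no gene (34.0% to 50.7%) were left out. For each gene the deposited estimated counts of its transcripts were added up and then rounded. Names came from GENCODE 29, which held 182238 of 215170 transcripts (84.7%, with 87.8% to 90.4% of the estimated counts). GENCODE 29 is on GRCh38 and was used for names, GC content and shared exonic bases between genes, with none of its coordinates printed or joined to the files' build, and promoters came from RefSeq on GRCh38.p14.

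A separate edgeR model (version 4.0.16, under R 4.3.3) was fitted to each experiment with a mean for every group. Low genes were removed by filterByExpr, scaling used TMM (0.873 to 1.09 with drugs, 0.955 to 1.05 after excision), and the quasi-likelihood test was the robust one. The biological coefficient of variation was 0.129 in the drug experiment and 0.323 in the excision experiment. Standard errors are approximate, obtained by dividing a log2 fold change by the root of its F statistic. With 2 libraries a group the lowest p that exact permutation allows is 0.333, so the p-values given rest on the variance model. On simulated data, 91 and 100 of 100 genes changed 2- and 4-fold were recovered for both drugs against DMSO at 72 h (5 of the unchanged genes called), and 6 and 59 for DKO against EV (5 unchanged called). The changed genes were drawn from those above a floor of expected counts, and all genes of an experiment were given the same spread. These numbers therefore do not describe members with few counts, such as LAT, or with a wide spread, such as THBS1. Also run were fits without each library in turn, with the replicate number as a block, with all genes of at least 1 count, with RLE in place of TMM, with a GC trend removed (loess, span 0.3, drug experiment), and with DESeq2 1.42.0.

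Members, lists and tests were chosen with earlier results of these data known. Members called against DMSO after 72 h or against EV are given in every library, and the others by range. Of the other platelet genes, ITGA2B, ITGB3 and those of the 6 with the lowest p over the 3 comparisons at 72 h are named, except 1 gene that is not reported here.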

Additional observations from a re-analysis of the deposited data

Results flagged for a closer look

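The difference between the effect of X5050 with GSK343 present and its effect without it, tested as an interaction across all tested genes, passed the threshold for 9 members. On the log2 scale it was -3.12 for RAB27B, -2.87 for P2RX1, -2.23 for GP6, -1.75 for CD226, -1.39 for ANGPT1, -1.38 for ETV6, -0.79 for F2R, -0.70 for P2RY1 and -0.64 for FERMT3. All 9 were below 0, beside 9.04% of all tested genes called below 0 and 9.75% above. Each value rests on 8 libraries, 2 with both drugs, 2 with GSK343, 2 with X5050 and 2 with DMSO.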

How the results depend on the processing

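Of 104 calls of a member in a comparison, 57 stood with any 1 library left out. DESeq2 kept 100 of the 104, RLE size factors 102, no filter beyond 1 count 96 and the replicate block 104, all in the same direction. With the GC trend removed 77 of the 89 drug calls kept direction and threshold, 10 lost the threshold and 2 reversed, FERMT3 against DMSO at 72 h (-0.012) and at 8 h (0.041) of both drugs. The counts of called members moved by over 1.5 times under DESeq2 in S1KO (8, main 5) and S2KO (8, main 4). With each library left out they ranged from 3 to 8 for GSK343 (main 6), 2 to 8 for X5050 (6), 5 to 6 for both drugs at 72 h (9), 9 to 11 at 8 h (12), 6 to 8 at 24 h (7), 8 to 11 for 24 against 8 h (12), 5 to 9 for 72 against 24 h (12), 5 to 10 for both drugs against GSK343 (10), 5 to 9 against X5050 (6), 7 to 10 for the interaction (9), 4 to 7 for DKO (6), 3 to 3 for S1KO (5) and 2 to 3 for S2KO (4). The replicate numbers were not taken to pair the samples, since the rule used asks for every pair of groups to correlate (correlations of deviations -0.055 to 0.233 with drugs, 0.488 to 0.622 among EV, S1KO and S2KO, but -0.084 to -0.059 with DKO). With the number as a replicate block the calls were 10 in DKO, 8 in S1KO and 7 in S2KO, and, in a fit added after seeing the data, the replicate block without the DKO libraries gave 13 in S1KO and 11 in S2KO. In simulated data the DKO comparison found 6 of 100 changes of 2-fold and 59 of 100 of 4-fold, so smaller changes in excised cells are often missed.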
